A study of Mus musculus with 6 samples.

Results

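The 39 Hox genes of the mouse lie in 4 clusters, and their chromatin accessibility was followed here in untreated embryonic stem cells. Members were the genes of a RefSeq table of build GRCm38.p6 whose symbol is Hox, a cluster letter from a to d, and a number. They made up 39 of 49997 genes in that table. The peaks described with them reached from 200 kb below the first to 200 kb above the last gene of each cluster, 178 of the 77629 peaks of the library.

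ATAC-seq maps open chromatin with the Tn5 transposase, which inserts sequencing adapters where DNA is not tightly packed. The cells were of the E14 mouse embryonic stem cell line with an NSD1-dTAG knock-in, through which the small molecule dTAG-13 sends NSD1 to degradation. NSD1 is a methyltransferase of histone H3 lysine 36. The labels describe 6 samples in 6 groups of 1, all with the knock-in: stem cells given 500 nM dTAG-13 for 0, 1, 6 or 24 h, and embryoid bodies differentiated to day 6, untreated or kept in the same dose. The library analysed was the 0 h one, of cells that received no dTAG-13 and grew in 2i/LIF medium on gelatin. Since the remaining 5 were not analysed here, nothing below speaks of NSD1 loss. The labels do not say whether the line is 1 clone. With 1 library there is no replicate spread and no p-value, and every interval below covers counting error at the 95% level only. Intervals of shares also treat genes as independent draws, though neighbours can share a peak.

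Of the embryonic stem cell markers, 7 of 8 had a peak at a gene end, with a median summit pileup of 114 and Pou5f1 highest at 152. Esrrb was the marker without one at an annotated end, and had a peak at its listed start. Markers of feeder fibroblasts had one in 3 of 6 genes, with a median pileup of 22, and Col3a1, Acta2 and Postn had none. Markers of early lineage cells had one in 6 of 6, with a median of 41.5. Of protein-coding genes other than Hox genes, 66.4% had an end peak, with a median of 66. The counts alone therefore do not tell cell types apart. The summit pileup counts the reads or fragments that overlap at the top of a peak, and was recovered from the deposited values. Over all peaks on chromosomes 1 to 19, X and Y its median was 23, and the lowest listed was 6, so weaker sites were not detectable.

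Hox genes encode homeodomain transcription factors that give cells their position along the head-to-tail axis of the embryo. Genes at one end of a cluster (paralog groups 1 to 3, here called anterior) act in the hindbrain and pharynx, and those at the other end (groups 9 to 13, posterior) in the lumbar, sacral, limb and genital regions. In the embryo they are switched on in that order, with retinoic acid, WNT and Cdx factors among the inducers. In embryonic stem cells the clusters are a textbook target of Polycomb repression, balanced by Trithorax methyltransferases.

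The clusters also hold 6 microRNA genes, of which several are known to repress Hox messages. Their main arms are shown because they fall into families that recur at the same place in different clusters. Capitals mark the seed, bases 2 to 8, and sequences are those of RefSeq for GRCm38.p6.
mmu-miR-10a-5p: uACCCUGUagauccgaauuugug
mmu-miR-10b-5p: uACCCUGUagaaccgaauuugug
mmu-miR-196a-5p: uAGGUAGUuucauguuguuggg
mmu-miR-196b-5p: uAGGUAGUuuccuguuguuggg
mmu-miR-615-3p: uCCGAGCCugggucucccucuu

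miR-10a, in Hoxb, and miR-10b, in Hoxd, share a seed, and so do miR-196a, made from a gene in Hoxb and another in Hoxc, and miR-196b in Hoxa. By overlap of a peak with the hairpin, genes of the miR-196 family differed and those of the miR-10 pair did not. A peak lay over the hairpin of Mir196b (chr6:52229585-52230182, pileup 26, Poisson interval 17 to 38.1) and over that of Mir615, inside Hoxc5 (chr15:103014876-103015992, pileup 18, 10.7 to 28.4). None lay over Mir196a-1 or Mir196a-2, whose nearest summits were 1.18 and 3.24 kb away with pileups of 14 and 19. None lay over Mir10a or Mir10b either, and there the nearest summits, of pileup 28 and 19, were 1.32 and 1.41 kb away. The first of these was the start peak of Hoxb4. It reached within 1 kb of an end of Mir10a, while no peak did so at Mir10b.

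Promoters of 22 of the 39 Hox genes matched the RefSeq promoter table, 24 entries in all. The 250 bases before the start are shown for 5 of them, 3 with a peak at the start and 2 without, because they include promoters rich and poor in CG both with and without a peak. Capitals mark CG pairs, each sequence runs 5′ to 3′ on the strand of its gene, and the build is GRCm38.p6.
Hoxd13, chr2:74667975-74668224, plus strand: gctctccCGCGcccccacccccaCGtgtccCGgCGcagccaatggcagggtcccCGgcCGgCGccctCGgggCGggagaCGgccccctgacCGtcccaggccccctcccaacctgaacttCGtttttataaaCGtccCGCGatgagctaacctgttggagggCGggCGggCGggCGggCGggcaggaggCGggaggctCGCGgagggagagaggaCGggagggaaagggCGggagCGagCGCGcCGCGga
Hoxa13, chr6:52260881-52261130, minus strand: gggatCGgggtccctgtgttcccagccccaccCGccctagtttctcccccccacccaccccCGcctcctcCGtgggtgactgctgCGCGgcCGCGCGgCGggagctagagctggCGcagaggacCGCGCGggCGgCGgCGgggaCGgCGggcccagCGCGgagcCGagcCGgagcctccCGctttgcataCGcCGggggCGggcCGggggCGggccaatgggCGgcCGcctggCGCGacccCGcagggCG
Hoxa7, chr6:52218574-52218823, minus strand: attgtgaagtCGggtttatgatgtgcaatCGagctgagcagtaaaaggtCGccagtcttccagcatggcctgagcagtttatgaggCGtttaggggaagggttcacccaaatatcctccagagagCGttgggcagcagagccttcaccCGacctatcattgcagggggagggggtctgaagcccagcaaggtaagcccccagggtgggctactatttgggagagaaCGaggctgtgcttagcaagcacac
Hoxa6, chr6:52208673-52208922, minus strand: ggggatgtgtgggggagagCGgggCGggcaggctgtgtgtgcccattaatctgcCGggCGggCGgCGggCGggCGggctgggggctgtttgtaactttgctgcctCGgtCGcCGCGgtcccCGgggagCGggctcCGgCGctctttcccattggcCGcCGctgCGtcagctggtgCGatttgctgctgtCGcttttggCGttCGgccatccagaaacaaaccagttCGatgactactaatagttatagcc
Hoxa2, chr6:52164832-52165081, minus strand: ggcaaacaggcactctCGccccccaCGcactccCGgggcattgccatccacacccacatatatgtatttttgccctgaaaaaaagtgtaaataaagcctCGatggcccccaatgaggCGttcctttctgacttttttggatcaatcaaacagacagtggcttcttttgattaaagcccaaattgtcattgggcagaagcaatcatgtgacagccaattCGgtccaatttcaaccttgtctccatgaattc

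In these bases the digit gene Hoxd13 had 31 CG pairs and a start peak of pileup 46. Hoxa13, which acts beside it in hands and feet, had more CG pairs (35) and a lower peak (29). Hoxa7 had 7 CG pairs and a taller start peak than Hoxa13, at 38. That peak did not overlap the bases shown, its summit lying 989 bp inside the gene. Hoxa6 had 24 CG pairs and no peak within 1 kb of its start. Hoxa2, the selector gene of the second pharyngeal arch, had 6 CG pairs and no peak. The order of these 5 by CG pairs was not their order by pileup. They were chosen to include CG-rich and CG-poor promoters both with and without a peak. Their order therefore cannot show how CG pairs and pileup relate in Hox promoters. Across the 17 Hox promoters with a start peak, with CG pairs counted over the longer stretch described below, the Spearman rho was 0.46.

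Accessible sites were dense in all 4 clusters. Hoxa (chr6:52155367-52260880, 11 genes) held 20 peaks in 106 kb, or 19 per 100 kb (Poisson interval 11.6 to 29.3). Hoxb (chr11:96194316-96368254, 10 genes) held 29 peaks in 174 kb, or 16.7 per 100 kb (11.2 to 23.9). Hoxc (chr15:102921131-103036856, 9 genes) held 20 peaks in 116 kb, or 17.3 per 100 kb (10.6 to 26.7). Hoxd (chr2:74668225-74765142, 9 genes) held 19 peaks in 96.9 kb, or 19.6 per 100 kb (11.8 to 30.6), the highest density by value. The clusters could not be ranked: the 6 ratios of density between pairs of clusters ran from 0.850 to 1.14, and each interval held 1.

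With all peaks counted, the 200 kb on either side was sparser than each cluster. All 4 gene spans together held 88 peaks in 492 kb (17.9 per 100 kb, 14.3 to 22.0), and the flanks 90 peaks in 1600 kb (5.62 per 100 kb, 4.52 to 6.91). The ratio of the densities was 3.18 (exact interval 2.34 to 4.31). By cluster it was 2.92 for Hoxa (1.54 to 5.43), 2.47 for Hoxb (1.41 to 4.34), 2.38 for Hoxc (1.28 to 4.36) and 9.80 for Hoxd (4.1 to 25.9). The flanks of Hoxd held 8 peaks in 400 kb, against 26, 27 and 29 for Hoxa, Hoxb and Hoxc. That gap depended on the width taken: flanks of 50 kb held 5 peaks per 100 kb at Hoxd, in place of 2 with 200 kb, against 9 at Hoxa, 6 at Hoxb and 6 at Hoxc. The contrast was smaller without peaks at gene starts, where the ratio over the 4 clusters was 2.22 (1.53 to 3.21). Single clusters did not all keep an interval above 1: without those peaks it was 1.55 for Hoxa (0.629 to 3.50) and 1.52 for Hoxc (0.675 to 3.20). With a -log10 q of at least 10 it was 1.58 for Hoxb (0.663 to 3.63) and 1.73 for Hoxc (0.722 to 3.87), and with a pileup of at least 20 it was 1.62 for Hoxb (0.707 to 3.61).

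**Figure D1:**
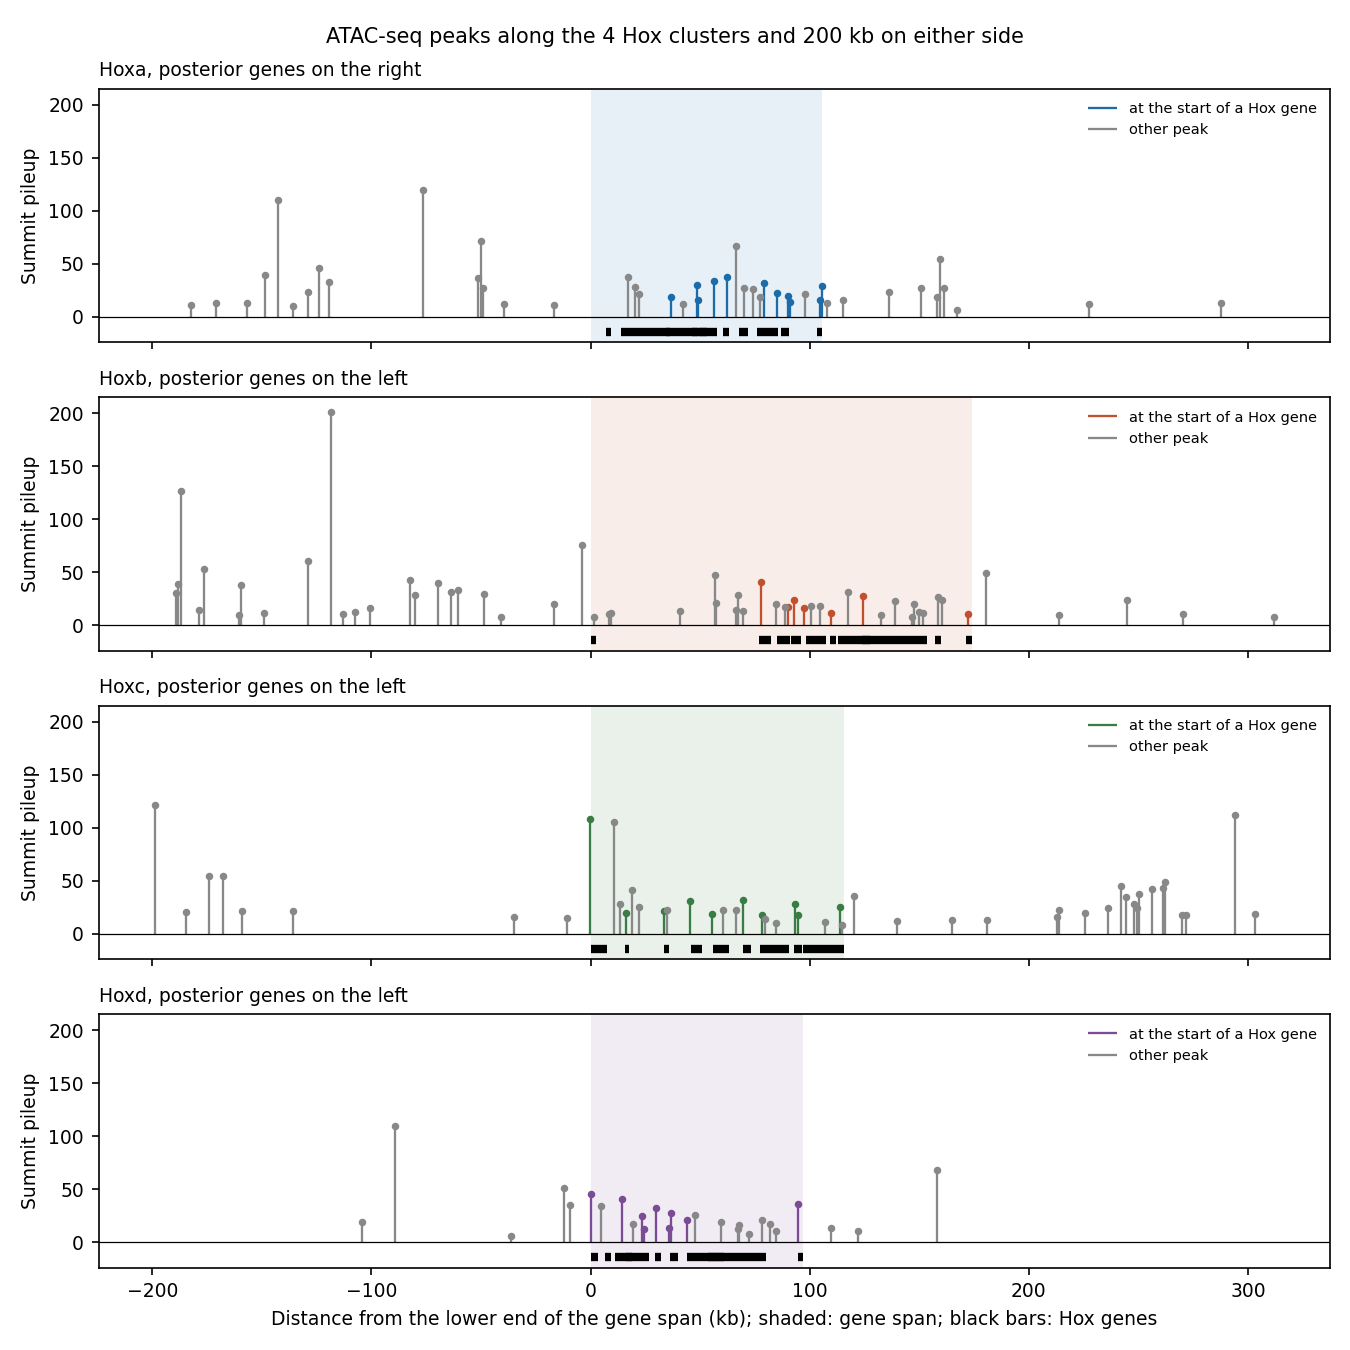
Peaks of the 4 Hox clusters, with the distance of each summit from the lower end of the gene span on the x axis (kb) and its summit pileup on the y axis. Shading marks the gene span, black bars the Hox genes, and colour the peaks at Hox gene starts. Stems crowd inside the shading, while the tallest stem in the flanks of Hoxa, Hoxb, Hoxc and Hoxd, at 120, 201, 122 and 110, exceeds every stem inside that cluster's span.

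Against the genome the clusters stood at the dense end. Of 26110 tiles of 100 kb on chromosomes 1 to 19 and X, 0.0804% had at least the density of Hoxa, 0.303% that of Hoxb, 0.161% that of Hoxc and 0.0460% that of Hoxd. The median tile held 2 peaks, the tile at the 99th percentile 14, and 26.1% held none. Counting only peaks with a pileup of 20 or more moved these shares to 0.303%, 6.17%, 0.850% and 1.38%. Peaks of Hoxb were often low: 12 of its 29 reached 20, against 14 of 20 in Hoxa, 13 of 20 in Hoxc and 10 of 19 in Hoxd.

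**Figure D2:**
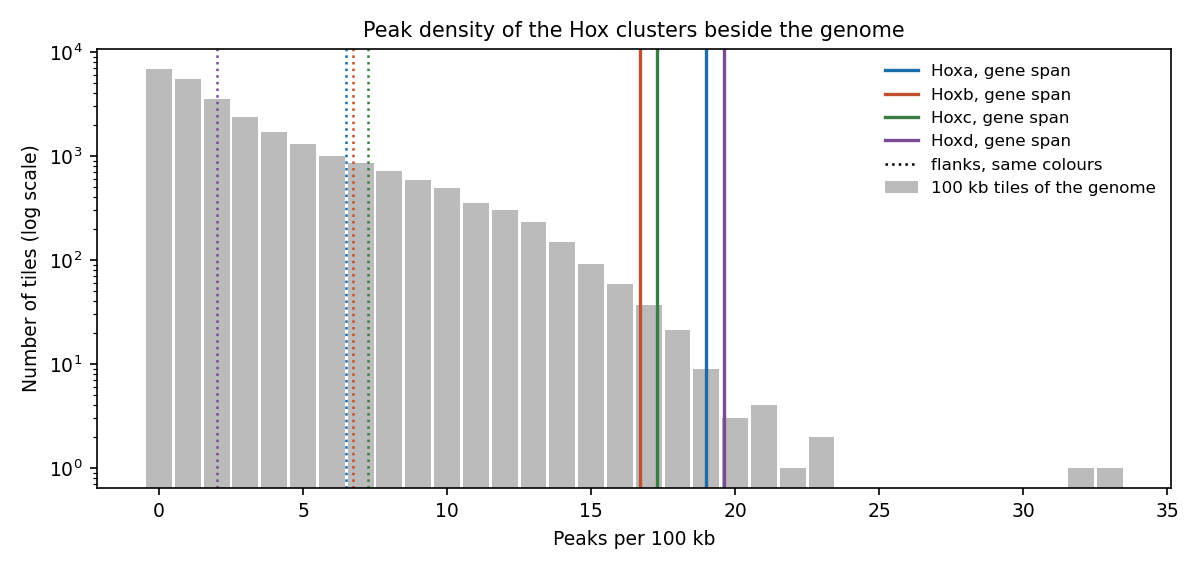
Peaks per 100 kb in 26110 genome tiles (grey bars, log scale on the y axis), with the gene spans (solid lines) and flanks (dotted lines) of the Hox clusters. The spans, at 16.7 to 19.6, sit beyond the 99th percentile of 14, and the flanks between 2 and 7.25.

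The peaks inside the clusters were close in height to peaks at large. Their median pileup was 21, against 23 over all peaks on chromosomes, and their median width 564 bp against 487 bp. The local background was higher there, at 3.21 against 2.12, and the fold enrichment over it, the authors' value, lower, at 5.24 against 7.05. By cluster the median pileup was 24.5 in Hoxa, 17 in Hoxb (range 8 to 48), 23 in Hoxc (8 to 106) and 21 in Hoxd (8 to 46). Peaks covered 13.4% of the bases of Hoxa, 8.55% of Hoxb, 13.6% of Hoxc and 13.9% of Hoxd.

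Most of the 88 peaks lay within 1 kb of a Hox start or in a Hox gene model. The share of the bases that these places take up was not measured, so the counts have no background beside them. Peaks at a Hox start numbered 36 (40.9%, median pileup 23.5) and peaks elsewhere in a Hox gene 31 (35.2%, median 18). A further 12 lay between genes (13.6%, median 26.5) and 9 in other genes (10.2%, median 15). The long gene models of Hoxa3 (44 kb), Hoxb3 (40.8 kb) and Hoxd3 (36.3 kb), which run across neighbouring Hox genes, held 8, 8 and 7 summits. Those 3 genes are anterior ones, Hoxa3 being needed for thymus and parathyroid.

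A start peak was found for 30 of the 39 Hox genes (76.9%, Wilson interval 61.7 to 87.4), where any overlap with the 1 kb on either side of the start counted. Of 17470 other protein-coding genes with a listed start, 66.5% had one. With a pileup of at least 20 the count was 24 of 39 (61.5%), against 61.6% of the other genes. With either annotated end of the gene taken it was 35 of 39 (89.7%), against 66.4%. The interval of the first share held the background, and the second share lay at it. The interval of the third, 76.4 to 95.9, lay above the background. This was not a test, since genes are not replicates and neighbours can share an end peak. No gene shared its tallest start peak with another. With either end taken, a gene can count through the start peak of a neighbour: the end peak of Hoxa6, at 30, was the start peak of Hoxa5.

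The peaks at Hox starts were low for gene starts. Their median pileup was 28, with quartiles of 20.2 and 33.5 and a range of 11 to 108. In the other genes with a start peak the median was 70, with quartiles of 41 and 104. Median fold enrichment was 6.11 against 11.4. In width they did not stand apart, with medians of 891 and 915 bp. Low start peaks of other genes were narrower: with pileups of 21 to 33, a median of 765 bp in 1203 genes, against 862 bp in the 14 Hox genes in that range. The local background in that range was 3.35 at the Hox genes and 2.31 at the others. Of the 14, 42.9% were at least 1 kb wide, against 28.1% of the 1203. No test was run on these differences.

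**Figure D3:**
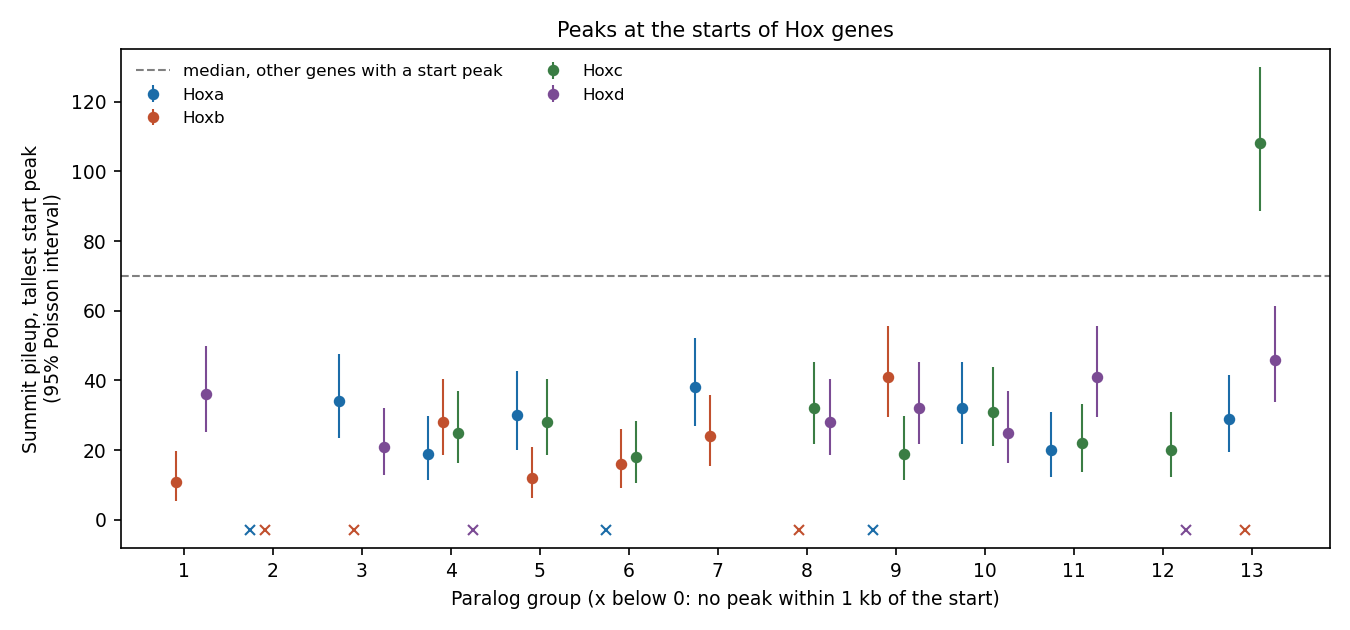
Summit pileup of the tallest start peak (y axis, bars are exact 95% Poisson intervals) of Hox genes by paralog group (x axis) and cluster (colour), crosses marking genes with no peak within 1 kb of the start. The points lie between 11 and 46 apart from Hoxc13 at 108, and the dashed line is the median of 70 of other genes with a start peak.

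Among the anterior genes 5 of 8 had a start peak (62.5%, 30.6 to 86.3), with a median pileup of 34. Hoxb1, which gives identity to a hindbrain segment, was the lowest of all 30 at 11 (5.49 to 19.7), over the genome-wide background of 1.3. Its paralog Hoxd1 had 36 (25.2 to 49.8), with a fold of 12.3, and the intervals did not overlap.

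Neither gene of paralog group 2 had a start peak. Hoxa2 had no summit in its body either. Hoxb2, a hindbrain gene, had a summit of pileup 27 in its body, 1.38 kb from the start. In group 3, Hoxa3 had 34 (23.5 to 47.5) and Hoxd3 21 (13 to 32.1), while Hoxb3 had no peak at its annotated outer end. The tallest summit in the Hoxb3 body reached 32, with a fold of 12.3, at chr11:96311621-96312237.

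Among the central genes, groups 4 to 8, 12 of 15 had a start peak (80%, 54.8 to 93.0), with a median pileup of 26.5 and a range of 12 to 38. Hoxb4, known for expanding blood stem cells, had 28 (18.6 to 40.5), and its paralogs Hoxc4 and Hoxa4 had 25 and 19. Hoxa5, needed for the lung, had 30 (20.2 to 42.8) and Hoxc5 28, whereas Hoxb5 had 12 (6.20 to 21.0) with a -log10 q of 2.17, the weakest call of the 30. The 2 group 6 genes with a start peak were both low, Hoxc6 at 18 and Hoxb6 at 16. Hoxa7 had 38 (26.9 to 52.2) and Hoxb7 24 (15.4 to 35.7), in overlapping intervals. Hoxc8, a thoracic gene, had 32 and Hoxd8 28. Hoxa6, Hoxb8 and Hoxd4 had none, and of these Hoxa6 had no body summit.

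Among the posterior genes 13 of 16 had a start peak (81.2%, 57.0 to 93.4), with a median pileup of 31 and a range of 19 to 108. Hoxb9 was the highest of group 9 at 41 (29.4 to 55.6) in a peak of 1958 bp, followed by Hoxd9 at 32 and Hoxc9 at 19. The group 10 genes, which specify ribless lumbar vertebrae, were close to each other, Hoxa10 at 32, Hoxc10 at 31 and Hoxd10 at 25. In group 11, which patterns the forearm and kidney, Hoxd11 reached 41 (29.4 to 55.6), Hoxc11 22 and Hoxa11 20. Hoxc12 had 20 over a local background of 7.07, and a fold of 2.6. In group 13, Hoxd13 had 46 (33.7 to 61.4) and Hoxa13 29 (19.4 to 41.6).

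Hoxc13, known for its part in hair and nails, had the tallest start peak of the 39 genes. It reached 108 (88.6 to 130) at chr15:102920512-102922226, with its summit 379 bp before the start. A peak of like height, 106 (86.8 to 128), lay between Hoxc13 and Hoxc12 at chr15:102931590-102932194, 3.12 kb from the nearer end of Hoxc13. Hoxb13, its paralog in prostate and tail, had no start peak and a body summit of 8. Hoxa9 and Hoxd12 had no start peak either, Hoxa9 with a body summit of 27 and Hoxd12 with none.

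The 9 genes without a start peak were Hoxa2, Hoxa6, Hoxa9, Hoxb2, Hoxb3, Hoxb8, Hoxb13, Hoxd4 and Hoxd12. At the local background beside them, the lowest pileup listed anywhere in the library was 7 to 17, so lower sites were not detectable there. Of these genes 6 had a summit elsewhere in the body. By cluster, a start peak was present in 9 of 9 genes in Hoxc (70.1 to 100%), 7 of 9 in Hoxd (45.3 to 93.7%), 8 of 11 in Hoxa (43.4 to 90.3%) and 6 of 10 in Hoxb (31.3 to 83.2%). The median pileup was 25 in Hoxc, 32 in Hoxd, 31 in Hoxa and 20 in Hoxb. The intervals of the 4 clusters overlapped, as did those of the anterior, central and posterior genes, so no order along the cluster was detectable. The comparison with other genes turned with the window. With 500 bp, 24 Hox genes had a start peak (61.5%), against 65.0% of other genes, and with 2500 bp 35 (89.7%), against 69.7%. Hoxa3, Hoxa7, Hoxb6, Hoxb7 and Hoxc6 were among those lost at 500 bp.

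Summits of Hox start peaks lay inside the gene more often than before it. Of the 30, 23 had the summit downstream of the start (76.7%, Wilson interval 59.1 to 88.2), at a median of 334 bp into the gene. In the other genes 40% (39.1 to 40.9) were downstream, and the median was -28 bp, just before the start. Summits over 200 bp downstream made up 21 of 30 (70%) in Hox genes and 13.7% in the others. Other genes with low start peaks, of pileup 21 to 33, came closer but did not reach the Hox share, with 54.9% downstream (52.0 to 57.7) and 24.4% over 200 bp.

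The start used bears on this measure, since 17 Hox genes had no listed start and were given the outer end of the gene model. Among the 16 genes with a listed start and a peak, 14 were downstream (87.5%, 64.0 to 96.5), at a median of 356 bp. Hoxd9 and Hoxd8, for example, had the summit 376 and 312 bp inside the gene, and Hoxb4 323 bp. Hoxa13 and Hoxd10 were the 2 exceptions, at 58 and 322 bp before the start. Taking the nearest summit, the highest fold, other windows or only taller peaks gave 70 to 83.3% for Hox genes and 38.6 to 40.4% for the others. These alternatives were chosen after seeing the data, and no test of the difference was run. Of the upstream homeobox and ParaHox genes with a listed start and a peak, among them Cdx2, Pdx1 and Evx2, 6 of 7 had the summit downstream. So did 2 of 2 Dlx genes and 2 of 7 genes of the Irx1 to Irx6 and Six2 to Six6 set.

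**Figure D4:**
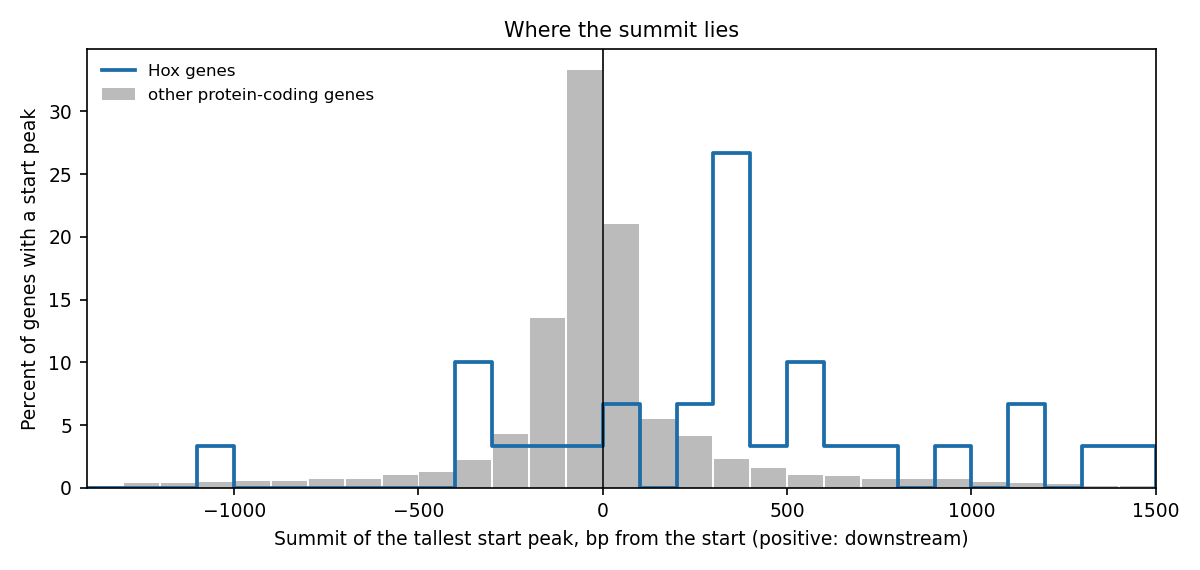
Distance from the gene start to the summit of its tallest start peak (x axis, bp, positive inside the gene) as percent of genes with such a peak (y axis), for 30 Hox genes (line) and 11619 other protein-coding genes (bars), in steps of 100 bp. The bars crowd at the start, with a median of -28 bp, and the line has its highest step between 300 and 400 bp inside the gene.

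CG content was counted over the 300 bases from 250 before to 50 after each listed start. The 24 Hox promoters had a median of 14.5 CG pairs and 57.7% GC, and 21239 other promoters 13 CG pairs and 56.3% GC. Of the Hox promoters, 17 had a start peak (70.8%), against 65.5% of the others, with median pileups of 29 and 68. The Hox promoters with a peak had a median of 20 CG pairs and those without 9. Among the others the medians were 21 and 3. Hox promoters with a peak were thus about as rich in CG as other promoters with one, and had lower peaks. A start peak need not overlap the bases counted, as at Hoxa7. Other promoters with 9 to 22 CG pairs, the middle range of the Hox ones, had a peak in 91.8% of cases, with a median pileup of 67. Across the 17 Hox promoters with a peak, pileup and CG pairs had a Pearson r of 0.46 and a Spearman rho of 0.46, and across 13912 others 0.24 and 0.3. These correlations are across genes of 1 library and are given as a description.

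**Figure D5:**
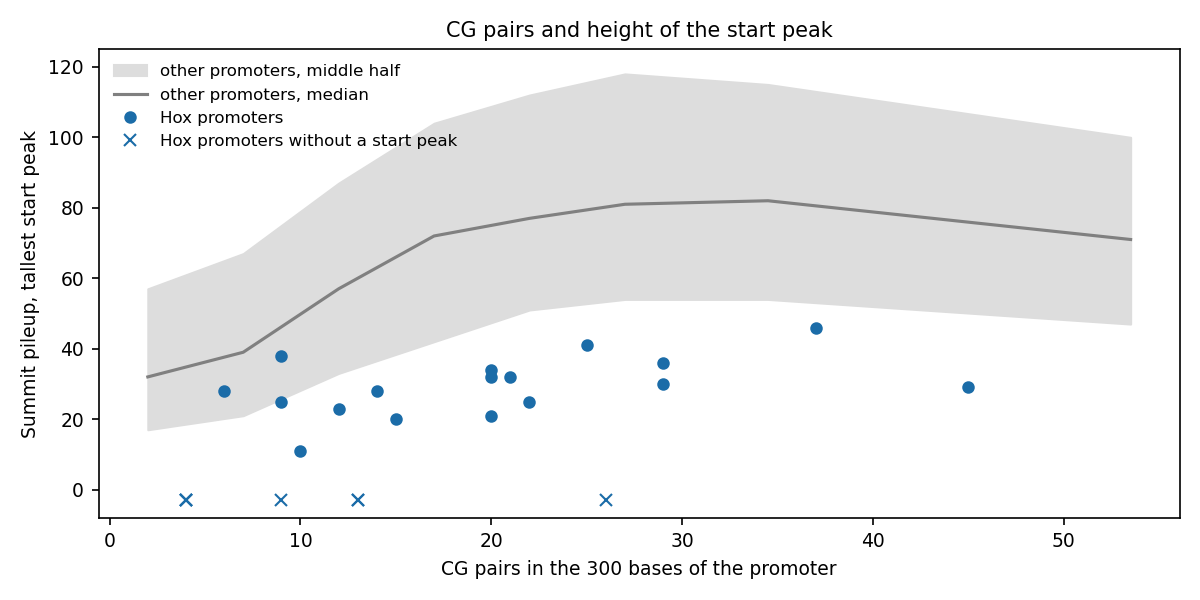
CG pairs in the 300-base promoter (x axis) and summit pileup of the tallest start peak (y axis) for Hox promoters (points, crosses for those without a start peak), beside the median (line) and quartiles (band) of other promoters with a peak. From 10 CG pairs on, every Hox point lies below the line, and the highest, Hoxd13 with 37 CG pairs, is at 46.

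Short motifs were searched on both strands of the same 300 bases. AGGNGGC, the core of the CTCF motif, was in 7 of 24 Hox promoters (29.2%) and 33.6% of the others. GGGCGG, the SP1 box, was in 10 (41.7%) and 46.2%, and TATAAA, the TATA box, in 4 (16.7%) and 12.6%. The Cdx motif TTTATNG was in 2 (8.33%), Hoxb8 and Hoxd4 with 3 matches each, and in 9.58% of the others. TGATTGAT, a PBX and HOX site, was also in 2 (8.33%), Hoxa2 and the second promoter of Hoxd11, and in 0.607% of the others. Direct AGGTCA repeats with 2 or 5 bases between them, the retinoic acid elements, were in no Hox promoter, and in 0% and 0.00471% of the others. A match is a run of letters and not a measured binding site, and SP1 boxes and CG pairs overlap.

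Several of the tallest sites of the clusters were not at a Hox start. In Hoxa a peak of 67 (51.9 to 85.1) lay between genes at chr6:52221430-52222223, 1.24 kb from Hoxa9. Another, at 38, lay in the Hoxa3 gene model at chr6:52172500-52172817. In Hoxb the tallest, at 48 (35.4 to 63.6), lay at chr11:96250831-96251258, 20.2 kb from Hoxb9 and beside the non-coding gene Gm53. In Hoxc a peak of 41 lay 1.41 kb from Hoxc12. In Hoxd the 3 tallest were all at starts, those of Hoxd13, Hoxd11 and Hoxd1.

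The longest stretch without a peak inside a cluster was in Hoxb, 31.2 kb at chr11:96203842-96235058. It lies in the wide interval between Hoxb13 and Hoxb9 and overlaps the non-coding gene Gm11538. The next longest in Hoxb was 15.3 kb. The longest were 13.5 kb in Hoxa, over Hoxa3 and Hoxa4, 11.1 kb in Hoxc, over Hoxc5 and Hoxc4, and 10.9 kb in Hoxd, over Hoxd3, Hoxd4 and Mir10b. Elsewhere peaks followed closely, with median distances between summits of 4.65 to 5.11 kb in the 4 clusters.

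The tallest flank site of each cluster exceeded the tallest inside it. By median pileup the flanks were taller on some sides and lower on others. Below Hoxa, Hoxb, Hoxc and Hoxd the medians were 27, 31.5, 22 and 35. Above them they were 19, 11, 24 and 14, against 24.5, 17, 23 and 21 inside the spans. Below Hoxa a peak of 120 (99.5 to 143) stood at chr6:52078497-52079339, 66.4 kb from the nearest protein-coding gene, Skap2. It was followed by 110 at the end of Skap2, an adaptor gene, and by 72 inside Halr1, a non-coding gene known to act on Hoxa. In the Hoxb flanks the tallest were 201 (174 to 231) beside Atp5g1, a subunit of ATP synthase, 127 beside Igf2bp1, and 76 (59.9 to 95.1) at chr11:96189999-96190634, 3.90 kb from Hoxb13. In the Hoxc flanks they were 122 at Calcoco1, 112 in Cbx5, which encodes a heterochromatin protein, and the Hoxc13 start peak, whose summit lies just outside the span. In the Hoxd flanks they were 110 at Lnpk, 68 at Mtx2 and 51 in the body of Evx2.

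The sides of a flank were counted apart. Peaks below and above the span numbered 15 and 11 for Hoxa, 22 and 5 for Hoxb, 9 and 20 for Hoxc, and 5 and 3 for Hoxd. Only at Hoxb did the intervals of the sides not overlap, at 6.89 to 16.7 below and 0.812 to 5.83 above per 100 kb. The 200 kb below Hoxb carried 7 protein-coding genes and the 200 kb above it 1, as did the side above Hoxd. The sides of Hoxa carried 1 each, those of Hoxc 1 below and 2 above, and the side below Hoxd 2. Whether peak number goes with gene number was not tested. Above Hoxd no peak was listed for 139 kb beyond the start of Mtx2, and below the cluster for 95.3 kb from the outer limit of the flank. Both sides of Hoxd are known, from other work, for long-range limb enhancers. Below Hoxc a stretch of 100 kb held no peak.

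Of the other genes in the clusters and flanks, 14 of 16 protein-coding ones had a peak at an annotated end. Gip and Evx2 were the ones without, though Evx2 had a peak of 35 at its listed start. Of protein-coding genes at large, 66.4% had a peak at an annotated end. Long non-coding genes had one in 31 of 39, microRNA genes in 3 of 6 and pseudogenes in 0 of 8. Elsewhere in the genome the shares measured the same way were 35.6% of long non-coding genes, 25.4% of microRNA genes and 10.6% of pseudogenes. Some of these peaks are shared with a Hox gene, because the genes overlap. Hotair, between Hoxc12 and Hoxc11, had 25 (16.2 to 36.9), Hottip, beyond Hoxa13, had 13 (6.92 to 22.2), and Haglr shared the Hoxd1 peak of 36. Evx1, a homeobox gene beyond Hoxa13, had 55 (41.4 to 71.6), above the median of 28 of the Hox genes.

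Other homeobox genes that lie in pairs or clusters were measured at either annotated end, since 7 of these 17 had no listed start. All 6 Dlx genes, which pattern jaw and forebrain, had a peak, with a median pileup of 33.5 and a range of 19 to 74. Of the 11 genes Irx1 to Irx6 and Six2 to Six6, known from heart, eye and kidney, 9 had one. Irx2 and Six3 had none at an end, though Irx2 had a peak of 91 at its listed start. The end peaks of the 9 had a median of 49 and a range of 25 to 91. The Hox genes by the same measure had 35 of 39, a median of 28 and a range of 8 to 108. The share of other protein-coding genes with one was 66.4%. Other protein-coding genes with an end peak had a median of 66. The ranges overlapped, and no test was made between these lists.

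In each of 5 lists of genes known to act with or on Hox genes, the median was above the 28 of the Hox genes, without a test. Other protein-coding genes had an end peak in 66.4% of cases, with a median of 66. That median was above those of the upstream homeobox and ParaHox list and of the retinoic acid list. The cofactors that bind DNA beside Hox proteins, of the Pbx, Meis and Pknox families, had an end peak in 9 of 9, with a median of 69 and a range from 23 at Pbx2 to 138 at Pbx4. The upstream homeobox and ParaHox genes had one in 7 of 8, with a median of 45, from 26 at Cdx4 to 63 at Gsx1. Of the genes of retinoic acid metabolism and signalling 10 of 13 had one, with a median of 32, from 15 at the binding protein Crabp2 to 91 at the receptor Rarg. Rarb, Cyp26b1 and Stra6 had none at an end, though Rarb had a peak of 55 at its listed start. The Polycomb genes had one in 14 of 14, with a median of 94, from 34 at Ezh1 to 157 at Ezh2, its paralog as the methyltransferase of the complex. The Trithorax genes had one in 7 of 7, with a median of 83.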

How the data were processed

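Peaks were called on this 1 library, per the labels, without a control sample. Per the submitters' processing notes the tools included Bowtie2 2.3.4.1, an aligner, and MACS2 2.2.6, a peak caller, with SAMtools 1.9, bcl2fastq 2.20.0.422 and deepTools 3.2.1 also named. They give mm10 and GRCm38.p6 as builds. Not given in the sources used here are read filters, removal of duplicates and any shift for the Tn5 insertion, each of which could change pileups. The deposited score was the authors' -log10 q times 10, rounded down. The deposited fold is a ratio by the authors, summit pileup over local background, and the deposited -log10 p and -log10 q are MACS2 values, the q threshold being 0.05. The local background came from the library itself.

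The summit pileup and background were recovered by solving fold = (pileup + 1)/(background + 1) together with the Poisson probability behind -log10 p. Whole pileups resulted for 77583 of 77629 peaks (tolerance 0.01), among them every peak of the Hox regions. Neither the total read count nor whether a unit is a read or a fragment is stated. Any PCR copies among them are not independent molecules.

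Gene starts came from the RefSeq promoter table (22 Hox genes) or were the outer end of the gene in the direction of its cluster (17). A peak belonged to a start if it overlapped the 1000 bp on either side by any base, and the tallest was taken. A peak was inside a cluster if its summit was. Titles gave the groups, since the 1 h and 24 h samples carry a treatment label of 6 h. The members, lists and tests were chosen with earlier results of these data known. Named were all Hox genes, the genes and the longest stretch without a peak in each region, and the 3 tallest peaks of each span and its flanks. Any other peak or gene was chosen once values were known. Intervals of shares are Wilson ones, and those of density ratios exact conditional binomial. The results of 1 Hox gene, whose start peak the plots by peak and by gene leave out, and of 2 genes of the other lists are not reported here. Functions were tested on simulated data. Alternatives varied windows, overlap, thresholds, flanks, tiles and zones. The work used scipy 1.17.1, pandas 2.3.3 and numpy 2.4.6 in Python 3.11.15, and matplotlib 3.10.9 for plots.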

Additional observations from a re-analysis of the deposited data

How the results depend on the processing

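Of 109 values under alternative settings, 78 stayed within their error or within 1.5 times the count, and 31 moved. Most are counts or shares, which have no sign to change. The order of Hox and other genes by share with a start peak did turn, from 76.9% against 66.5% to 61.5% against 65.0% (500 bp), 64.1% against 65.1% (summit inside the window), 64.1% against 65.5% (0.5 of the peak inside) and 59.0% against 61.9% (-log10 q of at least 10). The count of Hox start peaks ran from 23 to 35, with their median pileup 28 under other windows, choice by fold and counting distinct peaks. The density of the 4 spans was 12.6 per 100 kb at a -log10 q of at least 5, 8.53 at 10, and 9.96 at a pileup of at least 20. For the flanks it was 3.25 at a -log10 q of 10 and 3.44 at a pileup of 20. Both regions lost peaks, and the ratio was 2.63 and 2.90. Without gene-start peaks it was 2.22. The shares of tiles moved most. For Hoxa, Hoxb, Hoxc and Hoxd they were 0.287%, 0.651%, 0.651% and 0.287% with 50 kb tiles, 0.0460%, 0.0766%, 0.0613% and 0.0230% with 200 kb tiles, and 0.303%, 6.17%, 0.850% and 1.38% with a pileup of at least 20. Larger tiles average over more bases, and no cause was tested. Alternatives on the summit side, on the outer end as start (28 start peaks), and on density ratios and tiles by threshold were added after seeing the data. No paired analysis was possible because 1 library was analysed and no replicate numbers pair the samples. Sites below the lowest listed pileup could not be told from absent ones.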

Other observations

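Peaks at either gene end were counted for further lists, as values only. Genes of chromosome architecture, cohesin and CTCF, had one in 6 of 8 (median pileup 100), from 21 at Stag1 to 206 at Wapl. Stag1 had a taller peak, of 142, at its listed start. Rad21 and Nipbl had no peak at an annotated end. Markers of early lineage cells had one in 6 of 6 (median 41.5), from 15 at Pax6 to 62 at Sox17. An end peak was found in 66.4% of protein-coding genes other than Hox genes. Other protein-coding genes with an end peak had a median of 66.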
